A study of Mus musculus with 6 samples.

Results

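CpG-poor protein-coding promoters were examined in LSCs, the leukemia stem cells of a murine MLL-AF9 acute myeloid leukemia, with and without MMF treatment. Peaks of 6 ATAC-seq lists on chromosomes 1 to 19 and X were merged into 112652 regions, and 15888 of these had their midpoint within 1000 bp of a protein-coding transcription start in GENCODE M21. Of these promoter regions, 5809 (36.6%) were CpG-poor, that is, the 1000 bp of mm10 sequence around the midpoint had a GC content under 50% or a ratio of observed to expected CpG under 0.6. They made up 5.16% of all regions and lay nearest to the starts of 4821 genes, 819 of which had more than 1 such region. The rule used sequence and position and no difference between the groups. A region did need a peak in at least 1 list, and the MMF lists were longer. Both criteria were met by 2051 regions, 3434 met only the CpG criterion and 324 met only the GC criterion. The 5809 are the members described below, and the remaining 10079 promoter regions are called CpG-rich here.

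ATAC-seq, in which the Tn5 transposase inserts adapters into open chromatin, was applied to 3 control samples and 3 treated with MMF, and 1 list of peaks was deposited for each sample. The labels give every sample the same material, L-GMP cells with genotype WT, of cell type AML LSCs and tissue Blood, grown in medium with serum and mouse IL3, and give the MMF treatment as 24 h, while parts of the paper name a shorter time. The cells had been sorted from mice with leukemia driven by a transduced MLL-AF9 fusion and were cultured, so each sample is a population of cells of 1 leukemia model rather than normal progenitors. Nothing in the labels says that the samples came from separate animals or cultures, and the p-values measure only the spread between these samples, which may be technical.

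CpG islands lie at most promoters of widely expressed genes and keep them open in most cell types. Promoters without an island are typical of genes used by 1 tissue or stage, and in granulocytes and monocytes they include genes for granule proteins, S100 proteins, lectins and immunoglobulin-like receptors that are opened by factors such as C/EBP and PU.1 as the cells mature. MMF (mycophenolate mofetil) inhibits IMPDH, the enzyme that commits purine synthesis to guanine nucleotides.

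Promoter sequence is shown for 7 of the genes on which the results turn, to show how few CpG dinucleotides these promoters hold and which factor motifs they carry. Each line gives the 200 bases just before the start in GRCm38 (mm10), 5′ to 3′ on the strand of the gene, from the members whose summit lay close to the start. Capitals mark matches on either strand to the letters of a motif, and a match is a description and not a bound site. The motifs of myeloid factors were PU.1 (GAGGAAGT), C/EBP (TTGCNNAA) and RUNX (AACCACA). AP-1 was searched as TGANTCA. The motif of GATA factors, which act in erythroid and mast cells, was AGATAA, and that of IRF factors was a GAAA pair with 2 free bases between. CCAAT stood for NF-Y, a factor of many promoters. The GC box of SP and KLF factors was GGGCGG, and CRE was TGACGTCA. Letters of different motifs could overlap. Adam28, Bcl2a1b, Cd33, Lilr4b and Camp had higher peaks with MMF, the Tmem63a region beside this start had a peak only in the MMF lists, and Alyref2 was among the highest peaks of all.
Adam28 (chr14:68655817-68656016, minus strand): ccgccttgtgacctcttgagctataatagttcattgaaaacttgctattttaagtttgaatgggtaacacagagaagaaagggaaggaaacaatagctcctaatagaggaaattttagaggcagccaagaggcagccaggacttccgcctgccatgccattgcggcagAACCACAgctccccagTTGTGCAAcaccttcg
Bcl2a1b (chr9:89199009-89199208, plus strand): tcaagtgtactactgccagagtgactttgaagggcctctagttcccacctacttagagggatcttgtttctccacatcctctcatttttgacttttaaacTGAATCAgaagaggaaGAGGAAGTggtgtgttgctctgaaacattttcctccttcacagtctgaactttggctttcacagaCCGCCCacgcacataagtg
Cd33 (chr7:43533172-43533371, minus strand): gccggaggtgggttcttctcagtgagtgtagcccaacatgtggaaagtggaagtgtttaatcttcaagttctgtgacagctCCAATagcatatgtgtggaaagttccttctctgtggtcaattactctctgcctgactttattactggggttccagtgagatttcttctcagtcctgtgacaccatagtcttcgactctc
Lilr4b (chr10:51480432-51480631, plus strand): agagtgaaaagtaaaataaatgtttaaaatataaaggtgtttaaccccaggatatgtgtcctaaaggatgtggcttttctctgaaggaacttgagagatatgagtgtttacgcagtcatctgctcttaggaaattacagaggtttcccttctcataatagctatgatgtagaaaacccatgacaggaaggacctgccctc
Camp (chr9:109849618-109849817, minus strand): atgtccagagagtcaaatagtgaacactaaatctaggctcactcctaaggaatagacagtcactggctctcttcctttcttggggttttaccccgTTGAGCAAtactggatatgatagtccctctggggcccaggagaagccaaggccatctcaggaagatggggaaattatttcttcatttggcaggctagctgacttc
Tmem63a (chr1:180943835-180944034, plus strand): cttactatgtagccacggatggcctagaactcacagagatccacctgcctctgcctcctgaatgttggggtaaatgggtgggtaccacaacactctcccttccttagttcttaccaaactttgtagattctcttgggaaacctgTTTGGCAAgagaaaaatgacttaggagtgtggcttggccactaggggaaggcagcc
Alyref2 (chr1:171503278-171503477, plus strand): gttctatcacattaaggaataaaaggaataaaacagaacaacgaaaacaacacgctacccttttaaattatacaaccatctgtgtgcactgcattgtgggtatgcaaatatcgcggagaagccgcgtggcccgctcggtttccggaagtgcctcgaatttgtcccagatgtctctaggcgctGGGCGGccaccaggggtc

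The 200 bases held 1 CpG at Lilr4b, Camp and Tmem63a, 2 at Bcl2a1b and Cd33, 4 at Adam28, and 12 at Alyref2. Adam28 had a C/EBP match from −16 to −9 and a RUNX match from −32 to −26, counted from the start. Bcl2a1b had a PU.1 match from −84 to −77 beside an AP-1 match from −100 to −94. C/EBP matches lay from −105 to −98 at Camp and from −56 to −49 at Tmem63a. Lilr4b held none of these letters in the window, and Bcl2a1b and Alyref2 each held a GC box within 40 bases of the start.

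The CpG-poor promoter regions had a median GC content of 51.6% and a median CpG ratio of 0.388, against 63.0% and 0.794 in CpG-rich promoter regions. They were narrower, with a median width of 416 bp against 835 bp, and lay farther from the start, at a median of 182 bp against 107 bp. Their median height was 25.1 summit reads per unit of genome background, between the 68.0 of CpG-rich promoter regions and the 14.5 of regions away from starts. Summit reads are how many reads, as a whole number, covered a peak's summit, solved from the deposited fold enrichment and p. The genome background is the number of reads expected at an average site, which follows sequencing depth. At 1408 of the regions the gene also had a CpG-rich region, at another of its starts or elsewhere within the window.

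The lists differed in length before any promoter was looked at. Control lists held 58403 to 63802 peaks and MMF lists 80774 to 86437, the genome background was 0.62 to 0.729 in control and 0.676 to 0.909 in MMF samples, and a median summit rested on only 14 to 19 reads. Across the 41125 regions with a peak in all 6 lists, log2 summit reads correlated at 0.927 to 0.936 within a group and at 0.868 to 0.871 between the groups. Because those shared regions had more reads with MMF (medians of 35, 28 and 26 against 22, 21 and 19), heights are given at 2 scalings. Centred heights are set against the median of the shared regions of the same list, and depth-scaled heights against its genome background, which adds 0.35 to every log2 difference.

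More CpG-poor promoters were open with MMF when the lists were taken as deposited. A peak was present at 66.8%, 65.6% and 63.0% of them in the control lists and at 80.3%, 77.3% and 74.9% in the MMF lists, with means of 65.1% ± 1.97 and 77.5% ± 2.69 (SD, n = 3 each). Every MMF list stood above every control list. Any list could bring in a region, and the longer MMF lists brought in more. For example, 761 members had a peak in 1 MMF list alone and 312 in 1 control list alone. The share of CpG-rich promoter regions moved less, from 87.5% ± 0.621 to 90.0% ± 0.773 (SD, n = 3 each). The share of all regions moved more, from 52.6% ± 2.39 to 72.4% ± 2.89 (SD, n = 3 each). With every list cut to the length of the shortest, by p, the direction at CpG-poor promoters turned, with 63.3% ± 0.303 in control and 61.8% ± 0.626 in MMF lists (SD, n = 3 each). CpG-rich promoter regions then fell from 86.3% ± 0.394 to 81.9% ± 0.547 (SD, n = 3 each), so at equal length the CpG-poor ones held their share more closely than the CpG-rich ones. In these bulk samples a larger fraction of cells of one kind and a larger opening in each cell cannot be told apart.

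**Figure D1:**
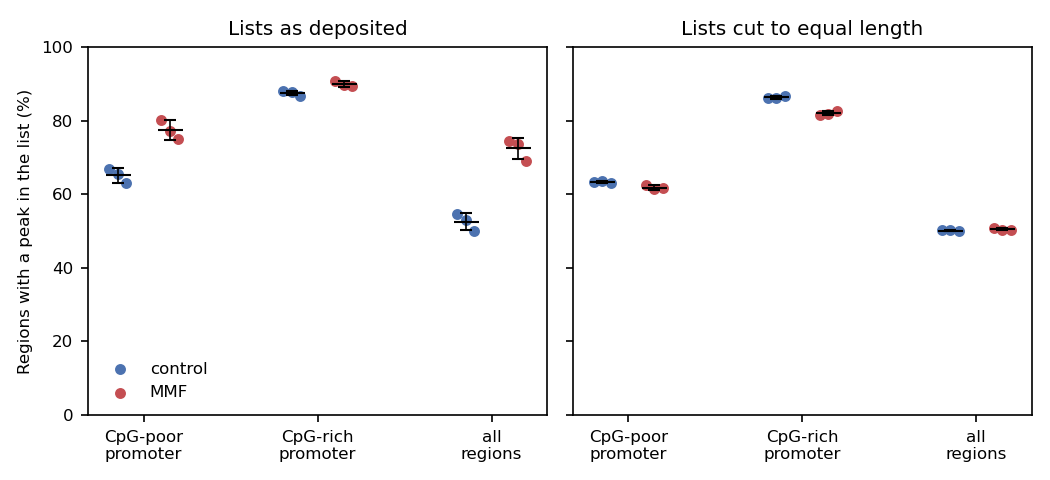
Share of regions with a peak (percent, vertical axis) in each control and MMF list, for CpG-poor promoter regions, CpG-rich promoter regions and all regions, with whole lists on the left and lists of equal length on the right. Points are samples, black marks are means with their SD, and the CpG-poor share goes from 65.1% to 77.5% in whole lists and from 63.3% to 61.8% at equal length.

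Peaks appeared at 198 CpG-poor promoters (3.41%), where all 3 MMF lists and no control list had a peak, against 6.01% of all regions. The opposite held at 12 (0.207%), against 0.182% of all regions. Appearance was more frequent than at CpG-rich promoter regions, of which 41 (0.407%) appeared and 8 disappeared, and less frequent than away from starts, where 6529 regions (6.75%) appeared. These counts are calls by presence, with no test. At equal list length 71 CpG-poor promoters appeared and 64 disappeared, against backgrounds of 1.79% and 1.05%, and 2 CpG-rich ones appeared while 87 disappeared. The excess of appearances over losses at CpG-poor promoters thus shrank with list length, and 68 appearances and 8 losses were called at both lengths. Leaving out any 1 list raised the 12 losses to between 21 and 30, and leaving out MMF replicate 3 raised the 198 appearances to 320. A call then rests on fewer lists, so these counts cannot fall.

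The appearing peaks sat farther from the start than the others and were weak. Their median distance was 494 bp, their median GC content 47.5% and their median CpG ratio 0.229, and in the MMF lists they had a median of 18.3 summit reads per unit of background. The 10 highest in the MMF lists were nearest to Btbd19, Bbc3, Taldo1, Ubb, Tlcd1, Fyco1, Tnfaip8, Tmem63a, Cdk4 and Nadk. Of these, all but Nadk also appeared at equal list length. At Bbc3, which encodes the proapoptotic BCL2-family protein PUMA, the region centred 846 bp before the start had 60, 48 and 41 summit reads in the MMF lists and no peak in the control lists. At Taldo1, encoding transaldolase of the pentose phosphate pathway, the MMF lists had 44, 39 and 36 summit reads 857 bp after the start. The region 827 bp before the start of Cdk4, a kinase of the cell cycle, had 42, 30 and 31. All of these 10 but Nadk and Tmem63a stood in the outer part of the window around a start. Bbc3, Taldo1, Ubb, Cdk4, Nadk and Tmem63a also had a CpG-rich promoter region. Tmem63a, encoding a mechanically gated ion channel, had 34, 28 and 39 summit reads 56 bp before its start. A second Tmem63a region 779 bp after the start was in all 6 lists and was higher (log2 0.52, adjusted p = 0.00964).

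Closer to the start, peaks appeared at several genes of maturing granulocytes, chosen as examples after their values were seen. Over the leukocyte gene lists together 25 of 476 regions appeared, against 198 of all 5809 CpG-poor promoters (3.41%) and 6.01% of all regions. At equal list length 7 of the 476 appeared and 7 disappeared. Of 12 regions at neutrophil markers 2 appeared, and 0 at equal list length. Cd177, a neutrophil surface antigen, had 16, 15 and 15 summit reads in the MMF lists at 10 bp before its start, and Ltf, encoding lactoferrin of the secondary granule, had 9, 9 and 7. Cebpe, a C/EBP factor needed for secondary granules, had 28, 18 and 18 in a region 171 bp before its start, while a second region 794 bp before it was already listed in 2 control lists. The chemokine gene Ccl6 had 2 appearing regions, with 27, 14 and 16 and with 26, 19 and 17 summit reads. At Hoxa9, a homeobox gene active in MLL-rearranged leukemia, 27, 27 and 22 summit reads stood 309 bp after a start, and the gene had a CpG-rich promoter region as well. The appearances at Cd177, Ltf, Cebpe and Hoxa9 were not called at equal list length. Other promoters were listed in part of the control lists. Ngp, encoding a neutrophilic granule protein, had 11 and 10 summit reads in 2 control lists and 44, 41 and 35 in the MMF lists. Elane, encoding neutrophil elastase, had 15 in 1 control list and 24, 26 and 26 in the MMF lists. Itgam, encoding the integrin CD11b, had 23 in 1 control list and 33, 26 and 24 in the MMF lists, so its heights overlapped closely where a peak was listed. Meis1, Myc and Pbx3 had no CpG-poor promoter region.

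Of the 12 disappearing peaks, the 5 highest in the control lists lay at Emp3, Pnpla2, Stat5b, Pecam1 and Gpr176. Emp3, encoding an epithelial membrane protein, had 33, 38 and 35 summit reads in the control lists 54 bp before its start, and this loss was not called at equal list length. Pnpla2, encoding a triglyceride lipase, had 25, 32 and 28 at 644 bp after its start. Stat5b, a transcription factor downstream of cytokine receptors, had 17, 18 and 18 at 634 bp before 1 start. At another start of Stat5b, a region 59 bp before it was in 1 control list and all 3 MMF lists. Pecam1, an adhesion molecule of leukocytes and endothelium, had 17, 19 and 16 in the control lists.

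Heights were compared at the 2952 CpG-poor promoters (50.8%) with a peak in all 6 lists. Promoters that appeared or disappeared are outside this comparison, and so is any promoter missed in 1 list, so it speaks for the stronger peaks. Centred heights were called higher with MMF at 125 (4.23%), against 8.78% of all shared regions, and lower at 1011 (34.2%), against 25.3% of all shared regions (limma, Benjamini-Hochberg adjusted p below 0.05). At depth scaling 349 (11.8%) were higher, against 21.8% of all shared regions, and 152 (5.15%) lower, against 3.08%. All 125 higher calls also passed at depth scaling, and all 152 lower calls at depth scaling also passed when centred. "Higher" below means these 125 promoters, and "fell" or "lower at both scalings" means these 152. Ranks of the deposited fold enrichment among shared regions, fitted without limma's trend, gave far fewer calls, 17 higher and 16 lower. Measure, ranking and fit changed together there. Setting the median difference of all shared regions to 0 gave 215 higher and 414 lower.

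CpG-poor promoters as a group lay between CpG-rich promoters and other regions. The median log2 difference (MMF minus control) of their centred heights was −0.32, against −0.47 for CpG-rich promoter regions, −0.04 for regions away from starts and −0.19 for all shared regions. At depth scaling the CpG-poor median changed sign, to 0.03, beside −0.12 for CpG-rich promoter regions, 0.31 away from starts and 0.17 for all. The order of the groups was the same at both scalings, as it must be where a constant is added. In 35.3% of the shared CpG-poor promoters and 9.42% of the CpG-rich ones the difference lay above the median of all shared regions. The median CpG-poor promoter was 1.42 ± 0.00982 times as high as the median shared region in control lists and 1.18 ± 0.0106 times in MMF lists (SD, n = 3 each). For CpG-rich promoters these values were 2.73 ± 0.0410 and 1.97 ± 0.0495.

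The height of a promoter moved with its call. Among CpG-poor promoters with a mean of 20 to 40 summit reads per unit of background, 66 of 974 were higher and 172 lower when centred, and at 80 to 160 these were 7 and 367 of 500. At 160 and above, 0 were higher and 53 lower when centred. CpG-rich promoters of the same heights were called higher less often, 1 of 944 at 20 to 40 and 0 of 3794 at 80 to 160, and called lower in 268 and 3331. At 20 to 40 and at 80 to 160, CpG-poor promoters thus had more higher and fewer lower centred calls than CpG-rich ones. This difference was not tested. At depth scaling they again had more higher calls, 164 of 974 against 21 of 944 and 19 of 500 against 9 of 3794. Depth-scaled lower calls were close in the 2 classes, 23 of 974 against 24 of 944 and 48 of 500 against 338 of 3794.

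**Figure D2:**
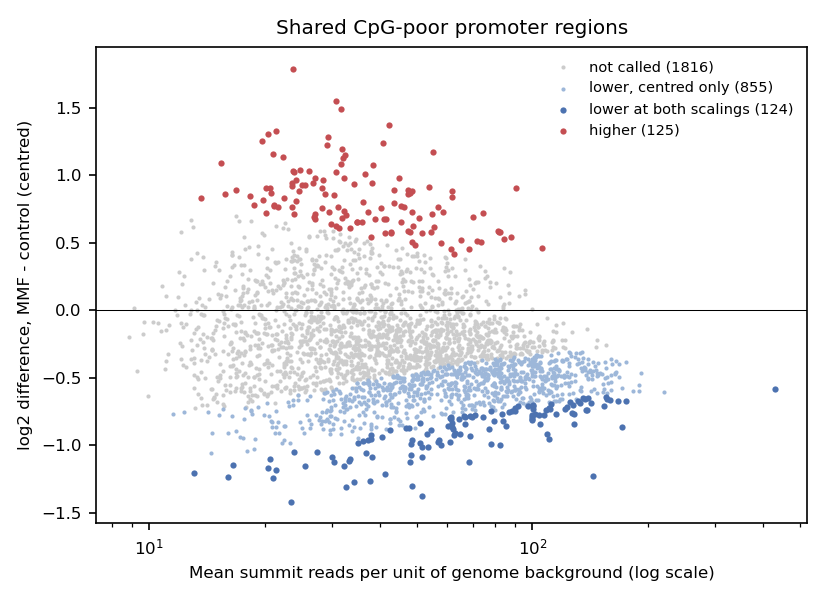
Centred log2 difference (MMF minus control, vertical axis) of each shared CpG-poor promoter region against its mean summit reads per unit of genome background (horizontal log axis), with called regions in colour. Higher calls sit mostly between 20 and 80 summit reads per unit of background, and the highest regions, which are repeats, are all called lower.

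The direction moved with the CpG content of the promoters. Over all 15888 promoter regions, the share that appeared with MMF was 7.73% at a CpG ratio under 0.2, 3.85% from 0.2 to 0.4 and 1.34% from 0.4 to 0.6, and it was 0.584%, 0.337% and 0% in the bins from 0.6, from 0.8 and from 1.0. Depth-scaled higher calls took 31.4%, 19.3% and 4.37% of the shared regions in the first 3 bins and under 1% in each of the rest. Depth-scaled lower calls ran the other way, from 0.813% and 2.26% to 5.83%, 7.86%, 7.22% and 5.5%. The median centred difference was 0.02, −0.19 and −0.41 in the CpG-poor bins and between −0.48 and −0.47 in the CpG-rich ones. The median thus changed inside the CpG-poor class and was nearly flat beyond it.

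The cut at a ratio of 0.6 fell where the values had levelled. The 240 shared regions just inside it, from 0.58 to 0.60, had 1 higher and 129 lower centred calls and a median of −0.46, and the 263 just outside, from 0.60 to 0.62, had 1 and 156 and a median of −0.46. Just inside the GC limit, from 49% to 50%, 0 of 74 shared regions with a CpG ratio of at least 0.6 were higher and 44 lower, and just outside it these were 0 and 58 of 90. Regions centred in the outermost 100 bp of the window around a start appeared in 15 of 338 cases, and those in the first 100 bp beyond it in 27 of 397.

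The 2 criteria picked promoters that behaved differently. Promoters meeting both appeared in 6.24% of cases, and 83 of their 791 shared regions (10.5%) were higher and 127 (16.1%) lower when centred, with a median of −0.11. Those meeting only the CpG criterion had 42 higher (2.18%) and 748 lower (38.8%) of 1927, with a median of −0.37. Those meeting only the GC criterion, AT-rich but not short of CpG, had 0 higher and 136 lower of 234, with a median of −0.45, and at depth scaling 5 were higher and 42 lower. This subset held 32 of the 38 repeat regions described below, and without them 0 of 206 shared regions were higher and 108 lower when centred, with a median of −0.40, and at depth scaling 5 were higher and 16 lower. Higher calls came from 104 promoters whose gene had no CpG-rich region and 21 whose gene had one, out of 2448 and 504 shared regions.

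**Figure D3:**
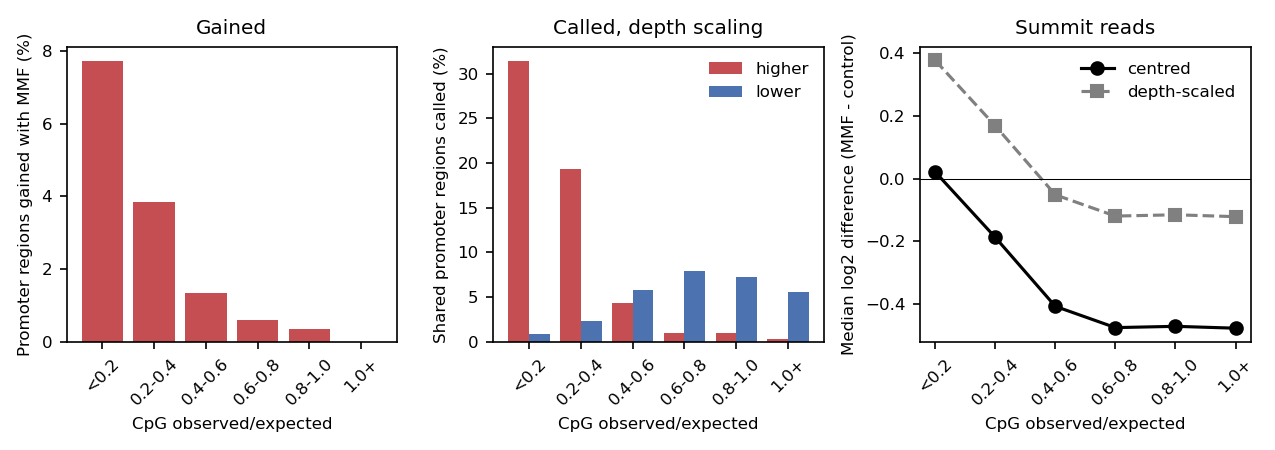
Promoter regions in bins of the observed to expected CpG ratio (horizontal axis), with the percent that appeared (gained) with MMF on the left, the percent of shared regions called higher or lower at depth scaling in the middle, and the median log2 difference (MMF minus control), centred and depth-scaled, on the right. Appearances go from 7.73% in the lowest bin to 0% in the highest, and the medians are nearly flat from a ratio of 0.6 upward.

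The 125 higher promoters belonged to 124 genes. They had a median CpG ratio of 0.224 and a median GC content of 47.2%, and rose from a median of 20.9 to 48.2 summit reads per unit of background. Their centred log2 differences ran from 0.42 to 1.79. The 10 with the smallest p lay at Adam28, Bcl2a1b, Cd33, Lilr4b, Hvcn1, Clec4a1, Camp, Hsd11b1, Bcl2a1d and Ankrd28. Lists of leukocyte genes held 37 of the 125 (29.6%), against 8.64% of all shared CpG-poor promoters. Those lists and their union were drawn up with earlier results of these data known, so the share is a description.

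Adam28, encoding a membrane metalloprotease of leukocytes, rose most among these 10. Its peak at chr14:68655519-68656030, which spans the start shown above, had 7, 6 and 5 summit reads in the control lists and 36, 28 and 25 in the MMF lists, and the groups did not overlap. Per unit of background this was 8.78 ± 0.776 against 38.7 ± 1.54 (SD, n = 3 each), and the centred height rose 3.46-fold (log2 1.79 ± 0.28 SE, adjusted p = 7.97e-07). The fold rests on 5 to 7 reads per list in control.

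Both Bcl2a1b and Bcl2a1d, antiapoptotic genes of the BCL2 family, rose. Bcl2a1b had 22, 18 and 18 summit reads in the control lists and 68, 60 and 58 in the MMF lists (log2 1.17 ± 0.18 SE, adjusted p = 1.15e-06). Bcl2a1d had 20, 23 and 21 against 71, 49 and 54 (log2 0.91 ± 0.18 SE, adjusted p = 7.91e-05). Neither pair of groups overlapped. The 300 bases around each summit, aligned without gaps at their best shift, were 73.2% identical over the overlapping bases. Reads that fit both copies could be placed at either, so the 2 genes are not taken as fully separate evidence. How many reads fit both was not tested.

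A list mostly of immunoglobulin-like receptors, which set the threshold of myeloid activation, held the most higher promoters of the lists. These were 10 of 29 shared regions (34.5%), with 2 lower when centred and a median of 0.18. Of all shared CpG-poor promoters 4.23% were higher, and of all shared regions 8.78%, shares that also stand beside the lists that follow. By share the S100 and stefin list was ahead, at 42.9%, and Fcrl1 gave 2 of the 10 regions. Cd33, encoding a sialic acid-binding inhibitory receptor and a widely used antigen of myeloid leukemia, had 30, 38 and 41 summit reads in the control lists and 122, 91 and 80 in the MMF lists, with no overlap (log2 0.90 ± 0.15 SE, adjusted p = 2.74e-06). A second Cd33 region, 218 bp before another start, had 41, 37 and 39 against 71, 63 and 58 and was not called when centred (log2 0.20, adjusted p = 0.328). Lilr4b, a leukocyte immunoglobulin-like receptor, had 12, 8 and 7 against 41, 34 and 35 (log2 1.55 ± 0.25 SE, adjusted p = 2.9e-06). Its neighbour Lilrb4a had 15, 13 and 17 against 49, 36 and 39 (log2 0.95 ± 0.22 SE, adjusted p = 0.000552). Aligned as for Bcl2a1b and Bcl2a1d, the bases around their summits were 82.7% identical. Those of Pilrb1 and Pilrb2, with log2 differences of 0.65 and 0.61, were 96.8% identical. The members of each pair are therefore uncertain taken singly. Trem3, a triggering receptor of myeloid cells, was also higher (log2 0.73, adjusted p = 0.00279), and so were Pilra, Fcrl1 and Sirpb1b. Fcer1g, encoding the shared signalling chain of Fc receptors, and Treml2 were lower when centred only, at log2 differences of −0.47 and −0.61.

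Among pattern receptors and lectins 3 promoters were higher. Clec4a1, a C-type lectin receptor, had 9, 13 and 19 summit reads in the control lists and 53, 45 and 47 in the MMF lists, again without overlap (log2 1.37 ± 0.23 SE, adjusted p = 4.6e-06). Mgl2, a galactose-binding lectin of macrophages and dendritic cells, was higher in a region 952 bp before its start (log2 1.33 ± 0.28 SE, adjusted p = 0.000158), and a second region 210 bp before it was not called (log2 0.61, adjusted p = 0.0783). Of the 14 shared regions at Toll-like and C-type lectin receptors, 3 were higher, 1 was lower when centred and the median was 0.20. The lower one was at Tlr9, a receptor for unmethylated CpG DNA (log2 −0.61).

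Granule genes were read by the stage at which their granule forms. Camp, encoding the cathelicidin of secondary granules, had 18, 8 and 17 summit reads in the control lists and 56, 44 and 38 in the MMF lists (log2 1.24 ± 0.23 SE, adjusted p = 3.05e-05). Orm1, encoding an acute phase protein that neutrophils store, had 23, 10 and 11 against 42, 41 and 35 (log2 1.01 ± 0.24 SE, adjusted p = 0.000599). These were the 2 higher promoters among 9 shared regions of the secondary and tertiary granule list, which also had 3 appearing peaks and 1 lower centred call, at Hp. Of 5 shared regions at primary granule genes, 0 were higher and 2, at Ctsc and Bpi, were lower when centred. At depth scaling 2 of these 5 and 3 of the 9 secondary and tertiary regions were higher, with medians of 0.30 and 0.58. The difference between the granule classes was not tested, and it rests on few promoters.

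The S100 and stefin genes, small calcium-binding proteins and cysteine protease inhibitors abundant in neutrophils, had 6 higher and 2 lower centred calls among 14 shared regions, with a median of 0.14. S100a8 had 16, 9 and 9 summit reads in the control lists and 35, 32 and 25 in the MMF lists (log2 0.97 ± 0.26 SE, adjusted p = 0.00217), and its partner S100a9 had 15, 15 and 9 against 38, 32 and 22 (log2 0.73 ± 0.25 SE, adjusted p = 0.0171). The stefin cluster on chromosome 16 had 4 higher promoters, at BC100530 (log2 1.30), BC117090 (log2 1.25), Gm5483 (log2 1.13) and Stfa1 (log2 0.54). By the same alignment, the sequences around the summits of BC100530, BC117090 and Stfa1 were 71.3% to 85.9% identical in pairs. Reads may be shared between these copies, which was not tested.

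Further higher promoters, examples chosen partly after their values were seen, lay at genes of other functions. Hvcn1, encoding the voltage-gated proton channel of phagocytes, had 10, 8 and 10 summit reads against 38, 35 and 39 in a region 954 bp after a start (log2 1.49 ± 0.25 SE, adjusted p = 4.19e-06). Ms4a3, a marker of granulocyte and monocyte progenitors, had 13, 14 and 15 against 43, 39 and 44 (log2 1.07 ± 0.22 SE, adjusted p = 0.000125). Hsd11b1, whose enzyme regenerates active glucocorticoid, had 29, 26 and 20 against 80, 70 and 49 (log2 0.88 ± 0.17 SE, adjusted p = 5.59e-05). The groups did not overlap at any of these 3. Hsd11b1 also had an appearing region 470 bp before the same start, and a region at another start that was not called (log2 −0.70, adjusted p = 0.0585). Gpr84, a receptor for medium-chain fatty acids on myeloid cells, the chemokine genes Ccl24 and Cxcl2 and the inflammasome gene Nlrp3 were higher as well, at log2 differences of 0.88, 1.03, 0.94 and 0.58. Among interferon-stimulated genes 3 of 34 shared regions, at Trim30a, Trim30b and Trim12a, were higher and 4 were lower when centred, with a median of −0.19.

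**Figure D4:**
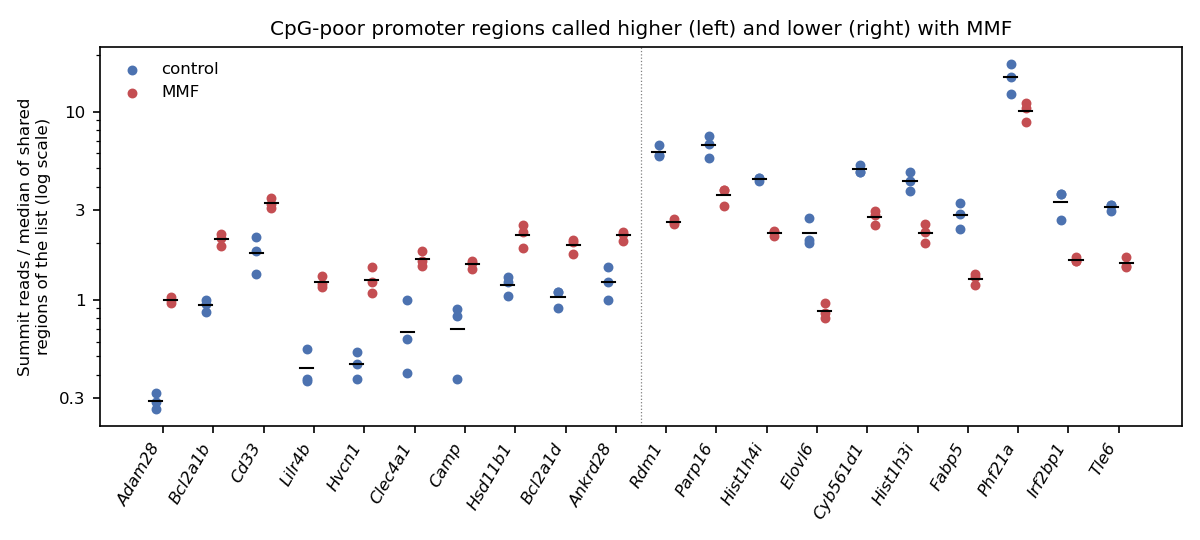
Height of named CpG-poor promoter regions in each sample, as summit reads relative to the median shared region of the same list (vertical log axis), for regions called higher on the left and lower on the right. Points are samples and bars are group means. Adam28 goes from between 0.263 and 0.318 in control to between 0.962 and 1.03 in MMF lists, and Rdm1 from between 5.84 and 6.62 to between 2.54 and 2.68.

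Other blood cell lists had mixed calls, beside 4.23% higher and 34.2% lower when centred among all shared CpG-poor promoters. Among all shared regions these were 8.78% and 25.3%. In all but the globin and erythroid list, lower calls took 8.33% to 33.3% of the shared regions. Cytokine receptors had 0 higher and 2 lower centred calls among 14 shared regions, with a median of −0.18, and blood transcription regulators had 0 higher and 4 lower among 12, with a median of −0.13. MHC genes had 0 higher and 2 lower among 10, with a median of −0.28. Chemokines and their receptors had 2 higher and 1 lower among 12, and leukocyte integrins, selectins and surface antigens 2 higher and 6 lower among 29. Leukocyte signalling genes had 6 higher and 10 lower among 45. Cytokines and inflammatory mediators had 1 higher and 2 lower among 21, and the Ly6, Ms4a and Gimap families 2 higher and 1 lower among 7. Globin and other erythroid genes had only 2 shared regions, 1 of them lower. At depth scaling all of these lists but the globin and erythroid one had positive medians, with 3 higher calls for cytokine receptors, 3 for blood transcription regulators, 8 for cytokines and inflammatory mediators and 11 for signalling genes. The cytokine list had a positive median when centred too, at 0.10. Over the union of the leukocyte lists, 476 regions at 383 genes, 255 were shared, 37 were higher, 40 were lower when centred and 5 fell at both scalings, with a median of −0.10 against −0.32 for all shared CpG-poor promoters.

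The genes that the study lists as raised by MMF in RNA had 30 CpG-poor promoter regions at 24 genes. Of these 4 appeared, and of 14 shared regions 7 were higher and 0 lower, with a median of 0.51. The study drew that list from RNA of MMF-treated cells and it overlaps the neutrophil genes above, so it is not independent evidence of direction. Olfactory and vomeronasal receptor genes, which blood cells do not use, had 7 appearances among 68 regions, and 3 at equal list length. Among their 14 shared regions 2 (14.3%) were higher and 0 lower, with a median of 0.25. Of all CpG-poor promoters 3.41% appeared, and 4.23% of the shared ones were higher. The receptor regions were weak, with medians of 13.1 and 11.8 summit reads per unit of background in control and MMF lists. Solute carriers had 5 higher and 21 lower centred calls among 58 and zinc finger genes 0 and 47 among 135, with medians of −0.33 and −0.34, near that of all shared CpG-poor promoters.

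**Figure D5:**
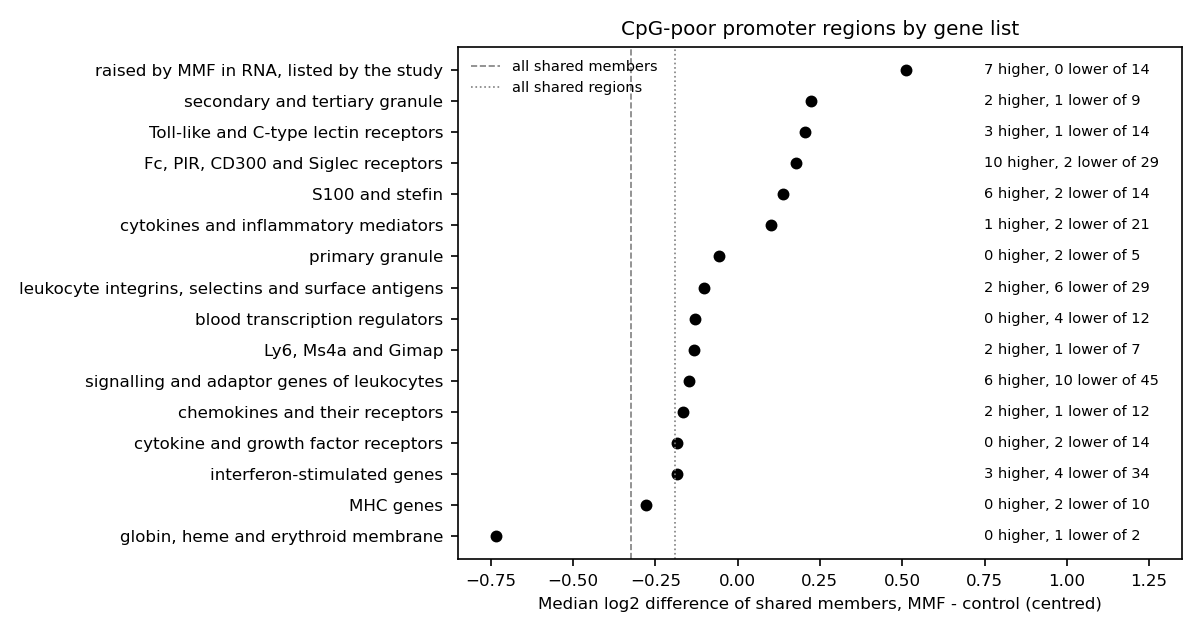
Median centred log2 difference (MMF minus control, horizontal axis) of the shared CpG-poor promoter regions of each gene list (vertical axis), with the numbers of them called higher and lower when centred printed at the right. The genes listed by the study as raised in RNA stand at 0.51, and the dashed and dotted lines mark all shared CpG-poor promoters at −0.32 and all shared regions at −0.19.

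Of the 152 promoters lower at both scalings, 124 lay outside repeats. They were higher and richer in CpG than the 125 higher ones, with a median CpG ratio of 0.538, and fell from a median of 78.2 to 56.0 summit reads per unit of background. Of the 124, 89 were centred within 200 bp of the start. Their log2 differences ran from −1.42 to −0.58, a range that the requirement of both scalings cuts short. The 10 of smallest p outside repeats lay at Rdm1, Parp16, Hist1h4i, Elovl6, Cyb561d1, Hist1h3i, Fabp5, Phf21a, Irf2bp1 and Tle6, a set taken without repeats after the values were seen.

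Rdm1, encoding a protein with a RAD52 motif linked to DNA repair, had 130, 139 and 111 summit reads in the control lists and 91, 75 and 66 in the MMF lists. The groups were separate although the MMF lists had more reads at shared regions on the whole. Per unit of background it fell from 186 ± 12.9 to 101 ± 4.47 (SD, n = 3 each), with a log2 difference of −1.23 ± 0.11 (SE, adjusted p = 1.21e-14) when centred and an adjusted p of 1.19e-08 at depth scaling. Rdm1 is a member through its GC content of 49.3%, and its CpG ratio of 0.673 is above the limit.

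Genes of lipid, glycolytic and amino acid metabolism, picked as examples after their values were seen, were among those that fell. Elovl6, a fatty acid elongase, had 46, 42 and 52 summit reads in the control lists and 28, 27 and 22 in the MMF lists (log2 −1.38 ± 0.19 SE, adjusted p = 3e-08). Fabp5, a fatty acid-binding protein, had 63, 69 and 45 against 48, 37 and 31 (log2 −1.12 ± 0.16 SE, adjusted p = 1.31e-07), with counts that overlap before scaling. Ldha, encoding a lactate dehydrogenase subunit, had 36, 31 and 30 against 24, 21 and 20 (log2 −1.09 ± 0.21 SE, adjusted p = 4.39e-05). Each fell at both scalings. Shmt2, of mitochondrial serine and glycine metabolism, and Slc1a5, a glutamine transporter, also fell, at log2 differences of −0.84 and −0.72 and adjusted p at depth scaling of 0.0261 and 0.0246. Other genes of such metabolism were called higher, among them Plin2, Hk3 and Hal, at log2 differences of 0.65, 0.62 and 0.46. Metabolic promoters were not counted in either direction.

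Histone genes were also among the lower promoters, noticed after the values were seen. Their names marked 20 members, 14 of them shared. All 14 were lower when centred, with log2 differences from −0.95 to −0.36 and a median of −0.66. The same call took 34.2% of all shared CpG-poor promoters and 52.4% of those meeting only the GC criterion outside repeats. At depth scaling the median of the 14 was −0.31 and 6 passed the test, against 5.15% and 7.77% of these 2 sets. Hist1h4i had 98, 90 and 84 summit reads in the control lists and 81, 64 and 57 in the MMF lists (log2 −0.95 ± 0.12 SE, adjusted p = 9.92e-09), and Hist1h3i had 94, 80 and 91 against 80, 56 and 66 (log2 −0.92 ± 0.13 SE, adjusted p = 8.76e-08). Of the 14, 12 were members through GC content alone and 13 lay on chromosome 13, in the main histone cluster, so they are similar sequences in 1 neighbourhood and reads may be shared between copies.

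Lower at both scalings were 2 of 12 shared regions at blood transcription regulators, 1 of 14 at cytokine receptors and 1 of 45 at leukocyte signalling genes, against 5.15% of all shared CpG-poor promoters, and these are described as examples. Lyl1, a basic helix-loop-helix factor of blood stem cells and progenitors, had 95, 77 and 77 summit reads in the control lists and 73, 58 and 67 in the MMF lists, without overlap (log2 −0.84 ± 0.13 SE, adjusted p = 8.65e-07, and 0.0034 at depth scaling). Ikzf2, a zinc finger factor of the Ikaros family, fell in a region 971 bp after a start (log2 −1.01 ± 0.18 SE, adjusted p = 1.42e-05). Ifngr1, the ligand-binding chain of the interferon gamma receptor, had 108, 106 and 109 against 127, 87 and 78, which overlap before scaling (log2 −0.69 ± 0.11 SE, adjusted p = 3.21e-06). Rasgrp2, an exchange factor for RAP proteins, fell in a region 457 bp before 1 start (log2 −1.27, adjusted p = 4.81e-06), whereas a second region 163 bp before another start was not called (log2 −0.32, adjusted p = 0.0733). Runx1, Runx3, Tnfrsf1b and Tnf were lower only when centred, at log2 differences of −0.85, −0.49, −0.86 and −0.72.

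By p alone the lowest calls, and by height the highest members, were repeats. At 38 members the local background was at least 30 times the genome background, a criterion set after the values were seen. Of these, 32 were shared, all 32 were lower when centred and 28 fell at both scalings, and 24 of the 28 lay on chromosome 9. Gm10800 had 104250, 97986 and 89519 summit reads in the control lists and 104840, 82055 and 78100 in the MMF lists, the most of all members. Its local background was 4912 times the genome background, and its log2 difference of −0.66 is therefore not read as that of the promoter of a gene. Stap2 had 1652, 1696 and 1325 against 1638, 1316 and 1312. Without repeats the highest members were Phf21a, with 464 ± 83.4 against 394 ± 49.3 summit reads per unit of background, and Alyref2, with 240 ± 27.5 against 201 ± 17.5 (SD, n = 3 each). Phf21a, encoding a subunit of a histone demethylase complex, fell at both scalings (adjusted p = 0.0395 at depth scaling). Its heights per unit of background overlapped between the groups. Alyref2, a relative of an mRNA export factor, was lower only when centred (log2 −0.61, adjusted p = 1.78e-06, and 0.0508 at depth scaling).

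Markers of other cell types were read for their CpG-poor promoters. Of 13 neutrophil markers 12 had such a promoter, 7 or 8 of the 12 were listed per control list and 10 to 12 per MMF list, and their summed height was 127 to 155 summit reads per unit of background in control and 340.0 to 359 in MMF lists. Myeloid progenitor markers summed to 75.5 to 98.3 in control and 153 to 178 in MMF lists over 4 promoters, and monocyte and macrophage markers to 279.9 to 289 and 362 to 424 over 9. B cell markers summed to 39.0 to 48.4 and 68.0 to 96.1 over 4 regions, megakaryocyte markers to 30.2 to 36.2 and 38.5 to 39.9 over 4, and mast cell, basophil and eosinophil markers overlapped at 57.8 to 96.0 and 92.4 to 112 over 3. Erythroid markers, summed over 6 regions, overlapped between the groups at 40.3 to 86.8 and 47.3 to 57.2. T and NK cell markers had 5 promoters, 1 listed in each control list and 1 to 4 in the MMF lists. Among the 5 shared neutrophil regions 3, at Camp, S100a8 and S100a9, were higher, among the 5 shared monocyte and macrophage regions 0 were called, and the 1 shared erythroid region, at Tfr2, was lower when centred (log2 −0.91). Summed heights of several marker lists, not of neutrophil markers alone, thus rose. These sums are depth-scaled, and a promoter without a listed peak added nothing, while the MMF lists were longer. On the same scale the median of all shared regions rose from 30.4 in control to 38.9 in MMF lists. The parts of list length, scaling and cell makeup in the sums were not tested.

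Motifs in the 200 bp around the summit differed in frequency between the classes. C/EBP letters were found at 11.8% of CpG-poor promoters, 4.05% of CpG-rich ones, 16.2% of regions away from starts and 14.9% of all regions. Among the CpG-poor promoters they were at 39 of the 125 higher ones (31.2%), 20.2% of the appearing ones, 12.2% of shared ones not called and 5.65% of those that fell outside repeats. Of all shared regions called higher, promoters or not, 29.0% held them, so the share in the higher CpG-poor promoters was near that of higher regions in general. PU.1 letters were at 6.49% of CpG-poor promoters and at 13.6% of the higher ones, 7.43% of those not called and 4.03% of those that fell, beside 8.28% of all regions and 11.8% of all shared regions called higher. Of the appearing CpG-poor promoters 7.07% held PU.1 letters, and of the 12 disappearing ones 2 did. RUNX letters were at 13.6%, 6.77% and 3.23% of the same 3 sets, and AP-1 letters at 15.2%, 11.1% and 6.45%. Among all shared regions called higher these were 15.7% for RUNX and 16.7% for AP-1, and among appearing promoters 12.6% and 17.7%. The GC box ran the other way, at 9.6% of the higher, 31.9% of those not called and 58.1% of those that fell, and at 28.1% of CpG-poor and 66.3% of CpG-rich promoters. GATA letters were at 10.4% of the higher, 3.91% of those not called and 8.06% of those that fell, against 5.27% of all CpG-poor promoters. IRF letters were at 4.8%, 3.30% and 0% of these sets, and CRE letters at 0.8%, 1.87% and 1.61%. NF-Y letters were at 22.4%, 28.4% and 37.1% of these sets, and TATAAA, searched from 45 to 15 bases before the start, at 2.4%, 2.04% and 0%.

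Read from the motif to the height, the 317 shared promoters outside repeats with C/EBP letters had 39 higher (12.3%) and 57 lower centred calls and a median of −0.09, against 86 higher (3.30%), 922 lower and −0.34 in the 2603 without. With a GC box 12 of 1112 (1.08%) were higher and 520 (46.8%) lower, and without it 113 of 1808 (6.25%) and 459 (25.4%). The letters differ in base composition, the GC box holds a CpG, and the promoters called higher were poorer in GC, so motif and base composition moved together and their parts were not separated.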

How the data were processed

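The authors trimmed reads with Trim Galore, mapped them to mm10 with Bowtie2 and ran MACS2 sample by sample (versions not given in the sources used here). Each deposited list gives the fold enrichment, a ratio of summit reads to local background, and the p-value and q-value as −log10. The score column, which the authors' peak caller derives from the p-value, was not used. The authors' own differential peaks, found with another program, were not repeated, and the reads were not used.

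Whole summit reads and the local background were solved from the deposited fold enrichment and −log10 p, and 100% of peaks came out whole at a relative tolerance of 0.0001. The genome background is the most frequent local background of a list. Peaks outside chromosomes 1 to 19 and X, no more than 0.447% of any list, were dropped. Sample groups came from the labels. Shared regions, listed in all 6 samples, were fitted together with limma 3.58.1 (lmFit, eBayes with trend) in R 4.3.3 on log2 centred summit reads, with Benjamini-Hochberg adjustment over all 41125. A peak of at least 1 bp overlap counted as present. With 3 samples a group an exact permutation test of a single value cannot go below p = 0.1, so none was used. In simulated data for this comparison, 200 of the 41125 regions were shifted. Of these, 20, 167 and 200 were called at log2 shifts of 0.5, 1 and 2, with 1, 5 and 7 calls among unshifted regions. The smallest shift was mostly missed in that setting. In the real data 3609 shared regions were called higher and 10405 lower, so the simulated rates need not hold there. Sequence was read from GRCm38 with pysam 0.24.0, and the other steps ran in Python 3.11.15, pandas 2.3.3 and scipy 1.17.1. The sequence of 1 promoter called lower is not reported here.

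Members and gene lists were chosen with earlier results of these data known. Named genes were the 10 promoters of smallest p in each direction, the 10 highest appearing and 5 highest disappearing ones, the 5 highest members, examples from gene lists, and Meis1, Myc, Pbx3 and Itgam. Of the 10 of smallest p called lower and the 5 highest members, only repeats that stand for the set are named, and the list of 10 lower genes leaves repeats out. Alternatives covered list length, q, overlap, the start and distance used, the sequence rule, scaling, ranks, deposited values as the measure, a filter on low reads, the prior, the replicate number and each sample left out.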

Additional observations from a re-analysis of the deposited data

How the results depend on the processing

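The list length, the scaling and the measure set most counts. At equal list length 71 promoters appeared, 64 disappeared and the MMF share was 61.8%. Appearances were 104 within 500 bp of the start, 128 with both sequence criteria required, 131 at genes without a CpG-rich region and 263 to 320 with 1 sample left out. Losses were 25 at an overlap of 50%, 2 with both criteria and 21 to 30 with 1 sample left out. Higher calls were 349 at depth scaling, 17 with normal scores of ranks among shared regions, 77 with normal scores within whole lists, 53 on log2 fold enrichment, 215 with the median difference set to 0 and 83 with both criteria, and 93 to 118 with 1 sample left out. Lower calls were 152 at depth scaling (and at both scalings), 16 and 10 with the 2 normal scores, 275 on log2 fold enrichment, 662 on log2 of −log10 p, 592 with a mean of at least 20 summit reads, 548 without the trend, 414 with the median difference set to 0 and 127 with both criteria, and 789 to 886 with 1 sample left out. The median of −0.32 reversed to 0.0302 at depth scaling and 0.0670 with normal scores within whole lists, and was −0.18 with normal scores among shared regions, −0.18 on log2 fold enrichment, −0.22 with at least 20 summit reads, −0.14 with the median difference set to 0, −0.34 with the gene 5′ end, −0.11 with both criteria and −0.32 with any sample left out. The scalings differ by a constant, and the both-criteria and 500 bp counts cover fewer promoters. Both normal scores ranked fold enrichment rather than summit reads and were fitted without the trend. Appearances and losses cannot fall when 1 sample is left out. For the other settings the cause was not tested. Setting the median to 0, leaving out repeats, the split by CpG-rich region and the call at both scalings were chosen after seeing the data.

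For 84 named promoters over these settings, 970 values stayed on the same side of the threshold, 266 kept their direction without passing it, 53 of them among the 504 with 1 sample left out, and 11 turned. With normal scores within whole lists these were Gm10800 (0.0947), Gm10801 (0.0279), Stap2 (0.0758), Gm21738 (0.0679), Parp16 (0.18), Phf21a (0.11), Scn8a (0.0651), Ikzf2 (0.0563), Bpi (0.0930) and Slc1a5 (0.10), and with normal scores among shared regions Phf21a (0.0159). Samples with the same replicate number did not deviate together (correlations of −0.000928, 0.00368 and −0.00263), and the replicate block gave 125 higher and 1016 lower calls and a median of −0.32.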
